A study of Oryza sativa with 21 samples.

Results

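The m5C landscape of wild-type rice seedlings was described from the 3 peak lists of cultivar ZH11. They were taken as the lists named in the labels of the ZH11 immunoprecipitated (IP) samples, and they make up 3 of the 6 peak lists and 221040 of the 497111 listed peaks in a series of 21 samples. These seedlings were labelled WT, grew in a chamber and were collected 3 weeks after germination. The rest of the series holds seedlings and grains of rice overexpressing DRW1, and ZH11 grains. Each list name was shared by 1 IP and 1 input sample of the same replicate number. No label says if the 3 replicates were separate plants, so the spread between lists may be technical. The sources used here do not state whether messenger RNA was selected, ribosomal RNA removed or DNA digested. The lists name no gene and carry no strand, so the seedling label could not be set against marker genes.

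In RNA, m5C is cytosine with a methyl group on carbon 5 of its ring. It is written by methyltransferases of the NSUN family and by DNMT2, and in plants it is known from transfer RNA, ribosomal RNA and messenger RNA. In rice, OsNSUN2 methylates messenger RNA and is known for keeping chloroplasts working in heat. Immunoprecipitation sequencing pulls RNA fragments that carry the mark out of a fragmented pool and reports stretches where the IP exceeds its background, so a peak marks a stretch of bases and not a single methylated base. In such bulk material a peak does not tell apart a few heavily methylated molecules from many weakly methylated ones.

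The ZH11 lists held many short stretches of modest enrichment. Replicate 1 listed 73753 peaks, replicate 2 listed 67984 and replicate 3 listed 79303, a mean of 73680 ± 5660 (SD, n = 3 lists). No interval was written more than once in any list. Together the peaks of a list covered 29.5 Mb in replicate 1, 18.4 Mb in replicate 2 and 24.4 Mb in replicate 3, so the lists differed more in covered length than in number. Peaks with a q below 0.05 made up 68.4%, 59.2% and 68.9% of the lists of replicates 1, 2 and 3. At a −log10 q of at least 5, 3762, 1908 and 3870 peaks were left in replicates 1, 2 and 3. Replicate 2 was thus the shortest list under each threshold, and the read depth behind any list is unknown.

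Most peaks were short, with a tail of long ones that differed between lists. Median length was 270 bases in replicate 1, 207 in replicate 2 and 225 in replicate 3, a mean of 234 ± 32.5 (SD, n = 3). The shortest peaks measured 117, 105 and 116 bases in replicates 1, 2 and 3, and 3.48%, 8.69% and 7.30% of the peaks had exactly that shortest length. Replicate 2 therefore held both the shortest peaks and the largest share of them. At the other end, 95% of peaks were shorter than about 1079 bases in replicate 1, 650 in replicate 2 and 788 in replicate 3. Peaks of at least 1000 bases made up 6.38%, 1.12% and 2.25% of the lists of replicates 1, 2 and 3, a mean of 3.25% that came to 1.69% without replicate 1. Those few long peaks held 22.6% of the covered bases in replicate 1, 5.26% in replicate 2 and 9.39% in replicate 3. The median position of the highest point was 48.5%, 47.3% and 47.8% of the length from the start in replicates 1, 2 and 3. That median alone does not show how closely the points gather around the centre. Between 25% and 75% of the length lay 68.3%, 65.8% and 72.05% of the highest points in those lists. Most were thus in the inner part of their peak, and the rest lay nearer an edge.

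**Figure D1:**
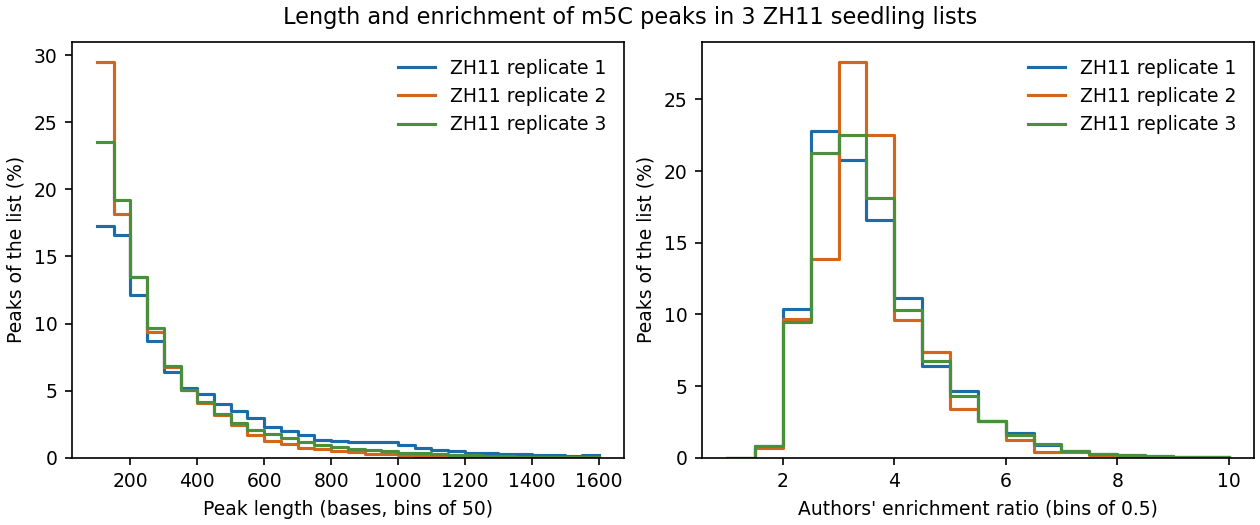
Share of each ZH11 list's peaks by length (left, bases) and by the authors' enrichment ratio (right), 1 line per list; peaks over 1600 bases or over an enrichment of 10 are not drawn. Replicate 1 has fewer peaks in the shortest bin and a longer tail, with medians of 270, 207 and 225 bases in replicates 1, 2 and 3, while median enrichment lies at 3.40, 3.34 and 3.43.

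Enrichment here is the authors' own ratio per peak and describes peaks within a list. Its median was 3.40 in replicate 1, 3.34 in replicate 2 and 3.43 in replicate 3. The middle 50% of peaks ran from 2.85 to 4.19 in replicate 1, from 3.03 to 4.14 in replicate 2 and from 2.94 to 4.16 in replicate 3. Peaks at 5 or more made up 11.1%, 8.55% and 10.7%, and only 37, 52 and 88 peaks reached 10. The ratios were not continuous. The 4 most frequent values of a list were evenly spaced, by 0.137 in replicate 1, 0.310 in replicate 2 and 0.242 in replicate 3, and the 10 most frequent values held 28.8%, 53.0% and 42.8% of the peaks of replicates 1, 2 and 3. The medians of the lists differed by less than 1 such step, so no difference in typical enrichment between them was resolved.

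Longer peaks were also more enriched. Among peaks of at most 150 bases the median enrichment was 3.12 ± 0.186, among those over 300 and up to 500 bases 3.64 ± 0.104, and among those of at least 1000 bases 4.80 ± 0.248 (mean and SD of 3 list medians). In replicate 2 the median stayed at 3.34 in every class up to 300 bases and rose only above that length. The rank correlation of length with enrichment across the peaks of a list was 0.465 in replicate 1, 0.267 in replicate 2 and 0.426 in replicate 3, given as a description, since length and enrichment come from the same reads. Likewise 50.8% ± 4.43 of the shortest class and 93.5% ± 3.71 of the longest had a q below 0.05 (SD, n = 3).

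The strongest regions were found by merging overlapping peaks of the 3 lists and averaging, over lists, the highest enrichment of each list. Their coordinates follow a genome build that the sources used here do not name, and no gene or sequence is assigned to them. First among regions in all lists stood Contig00094 at 61923 to 62673, with an enrichment of 12.3 in replicate 1, 15.4 in replicate 2 and 14.6 in replicate 3. It was followed by chromosome 7 at 12079721 to 12080630, with 11.7, 12.4 and 15.3. Chromosome 10 at 5232703 to 5233245 had 10.1, 14.5 and 11.5 in replicates 1, 2 and 3. Both of the top 2 regions were single peaks in replicates 1 and 3 and were split into 2 peaks in replicate 2. Chromosome 5 at 8677483 to 8678166 was the steadiest of the leading 10, with 11.9, 10.8 and 11.9 in replicates 1, 2 and 3. Chromosome 6 at 18121978 to 18122345 closed the 10, at a mean of 10.8 ± 1.55 (SD, n = 3).

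Each numbered chromosome had a region near the same height. The highest mean enrichment per chromosome ran from 9.52 ± 2.21 on chromosome 9, at 10000523 to 10002435, to 13.1 ± 1.93 on chromosome 7 (SD, n = 3 lists). On 3 chromosomes that highest region lay within 50 kb of the end of the span, taken here as the largest peak end in any list. These were chromosome 3 at 37012384 to 37012783 (10.1 ± 0.756), chromosome 4 at 35650515 to 35651375 (10.8 ± 1.5) and chromosome 11 at 28770749 to 28771092 (10.1 ± 2.22), which lay 3.67, 8.34 and 1.69 kb from that end. Of the 100 regions with the highest mean enrichment, 76 lay on numbered chromosomes, and 7 of these lay within 50 kb of 1 of the 24 chromosome ends. Of all regions present in the 3 lists on those chromosomes, 0.809% lay that near an end. Median enrichment of regions in all lists was 4.24 near the ends and 3.77 elsewhere on the numbered chromosomes. Distance from the end was examined after these positions had been seen.

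The longest regions were broad and less enriched than the strongest regions named above. Their mean enrichments ran from 5.14 to 7.04. All were above 3.78, the median of mean enrichment over regions in all lists. All of the 5 longest regions joined several peaks of each list, and the longest single peak of any list had 5791 bases. Chromosome 3 held the longest 2, at 30463119 to 30469505 (6387 bases) and at 8661525 to 8667866 (6342 bases). Peaks of replicates 1, 2 and 3 covered 6044, 2763 and 5666 bases of the first, and 6162, 2872 and 4835 of the second. The highest enrichments in the first were 8.54, 5.59 and 6.99 in replicates 1, 2 and 3, and in the second 5.51, 4.46 and 7.44. A region of 5909 bases on chromosome 4 at 11904963 to 11910871 reached 6.41, 3.65 and 5.37 in replicates 1, 2 and 3. One on chromosome 6 at 342600 to 348474 (5875 bases) had only 3.40 in replicate 1, against 6.43 in replicate 2 and 6.29 in replicate 3. The fifth longest lay on chromosome 1 at 35881157 to 35886955, with a mean of 5.98 ± 0.916 (SD, n = 3).

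Peaks sat close together. The median gap from the end of a peak to the start of the next was 1206 bases in replicate 1, 1380 in replicate 2 and 1106 in replicate 3, while the mean gap was 4722, 5283 and 4454 bases, so a minority of wide gaps separated groups of neighbours. Gaps under 1000 bases made up 45.5%, 41.2% and 47.4% of all gaps in replicates 1, 2 and 3. No gap was shorter than 144, 143 and 104 bases in those lists. At the far end, gaps of at least 50000 bases numbered 386, 556 and 394 and made up 0.524%, 0.819% and 0.497% of gaps. Taking the longest stretch without a peak in any list on each chromosome, the 3 widest were 145865 bases on chromosome 11 at 24965627 to 25111491, 131642 bases on chromosome 1 at 33658551 to 33790192, and 127515 bases on chromosome 9 at 11296383 to 11423897.

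**Figure D2:**
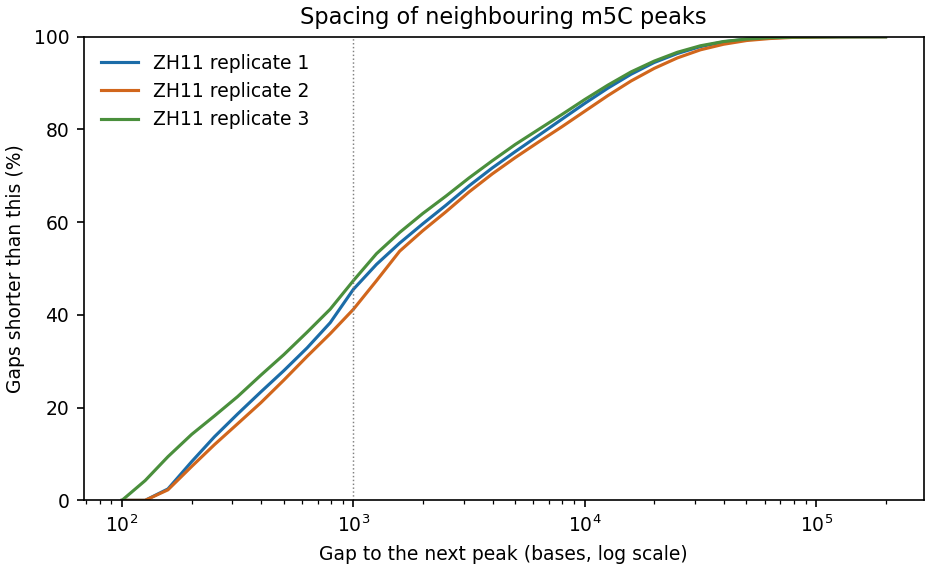
Cumulative share of gaps between neighbouring peaks (vertical, %) by gap length (horizontal, bases, log scale), 1 line per ZH11 list, with a dotted line at 1000 bases. The lists lie close together, and 45.5%, 41.2% and 47.4% of gaps in replicates 1, 2 and 3 fall left of the dotted line.

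Chains of peaks, defined as runs with every gap under 1000 bases, took in most of each list. Only 36.0%, 39.1% and 33.0% of the peaks of replicates 1, 2 and 3 stood alone. Chains of at least 5 peaks held 25.9%, 19.0% and 26.7%. Peaks in chains were longer than lone peaks, with median lengths of 297 against 234 bases in replicate 1, 219 against 190 in replicate 2 and 237 against 204 in replicate 3, while their median enrichment was 3.39 ± 0.0477 against 3.34 ± 0.0791 (SD, n = 3). The longest chain of replicate 1 lay near the start of chromosome 6, at 74550 to 105667, where replicates 1, 2 and 3 had 38, 34 and 36 peaks. That chain was thus dense in every list. Contig00023 carried the longest chains of the other lists. That of replicate 2, at 84467 to 117008, held 25, 33 and 42 peaks of replicates 1, 2 and 3, and that of replicate 3, at 85591 to 117014, held 24, 31 and 42.

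Density differed between chromosomes in nearly the same order in every list. Chromosome 5 had 220, 207 and 241 peaks per Mb of span in replicates 1, 2 and 3, a mean of 223 ± 17.1, and chromosome 10 had 219 ± 16.8 (SD, n = 3). Both took the first or second rank in each list. At the low end stood chromosome 2 with 168 ± 13.5, chromosome 6 with 170 ± 11.9 and chromosome 3 with 171 ± 13.9 peaks per Mb. These SDs mostly reflect that replicate 3 was above and replicate 2 below replicate 1 on each of the 12 chromosomes. Within a list, the densest chromosome exceeded the sparsest by a ratio of 1.32, 1.33 and 1.33 in replicates 1, 2 and 3. Chromosomes 4, 7 and 8 held ranks 4, 7 and 3 in all lists, and no chromosome moved by more than 2 ranks between lists. Neighbours in the order, such as chromosomes 2, 6 and 3, changed places between lists and are not told apart. Enrichment differed little between chromosomes: its mean per chromosome stayed between 3.56 and 3.63 in replicate 1.

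**Figure D3:**
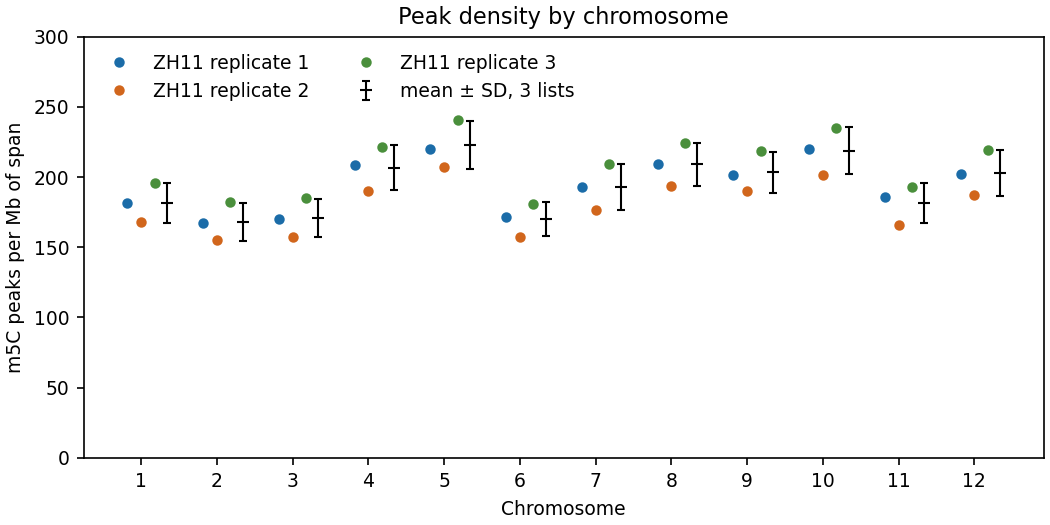
Peaks per Mb of span on each numbered chromosome (vertical) for the 3 ZH11 lists (coloured points), with their mean and SD in black. Chromosomes 5 and 10 lie highest, at 223 and 219 peaks per Mb, and chromosomes 2, 6 and 3 lowest, at 168, 170 and 171.

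Along most chromosomes the inner stretch was denser than the outer ones. Between 33.3% and 66.7% of the span, density was 222, 204 and 236 peaks per Mb in replicates 1, 2 and 3, against 178, 164 and 193 in the remaining span, a ratio of 1.24 ± 0.0135 (SD, n = 3). With the spans of all 12 chromosomes cut into steps of 10%, the densest step of the span was that from 30% to 40%, with 260 ± 17.3 peaks per Mb, and the sparsest that from 90% to 100%, with 147 ± 11.4. The inner excess was present in every list on 9 chromosomes, with the highest ratios on chromosome 3 (1.63 ± 0.0314) and chromosome 12 (1.58 ± 0.0384). Chromosomes 4 and 6 went the other way, at 0.807 ± 0.0123 and 0.787 ± 0.0323, and chromosome 9 had 0.985 ± 0.0255. The last 50 kb at either end of the spans went against the sparse outer stretches, with 377.5, 375 and 442.5 peaks per Mb in replicates 1, 2 and 3. On chromosomes 4, 9 and 10 the peaks were concentrated on the side of the lower coordinates. The density before the midpoint exceeded that after it by a ratio of 1.54 ± 0.0275 on chromosome 4, 1.51 ± 0.00223 on chromosome 9 and 1.52 ± 0.0185 on chromosome 10. As background, the short arms of rice chromosomes 4 and 10 are known to be rich in heterochromatin, and regions around rice centromeres are poor in genes and rich in repeats. Where centromeres and genes lie in these coordinates was not analysed here.

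**Figure D4:**
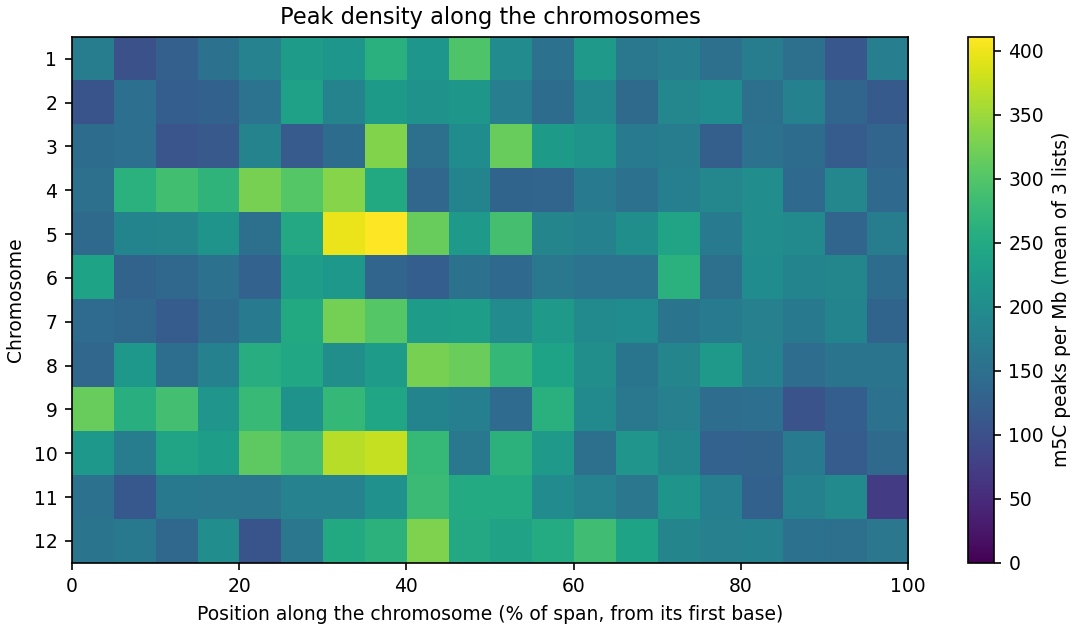
Mean number of m5C peaks per Mb over the 3 ZH11 lists (colour) in steps of 5% of each numbered chromosome's span (horizontal, % from its first base), with 1 row per chromosome. The brightest cells, at 411 and 400 peaks per Mb, lie on chromosome 5 between 30% and 40% of the span, and chromosomes 4, 9 and 10 are brighter on their left side.

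Inner and outer peaks differed little in mean enrichment and median length, but the inner excess was not seen among the strongest peaks. Mean enrichment was 3.57, 3.58 and 3.60 inside, against 3.63, 3.61 and 3.65 outside, in replicates 1, 2 and 3. The denser stretch thus held slightly weaker peaks on average in each list. Median length was 232 ± 32.2 bases inside and 236 ± 32.5 outside (SD, n = 3). When peaks were limited to a −log10 q of 5 or more, the inner over outer ratio was 0.995 ± 0.0425, and those strong peaks were spread about evenly between the inner and the outer stretches. Regions held by a single list had a ratio of 1.35, those in 2 lists 1.27 and those in all 3 lists 1.23.

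In windows of 1 Mb the lists gave nearly the same profile. Over 366 full windows, counts of 2 lists correlated at 0.977 for replicates 1 and 2, 0.983 for replicates 1 and 3 and 0.982 for replicates 2 and 3, as a description over windows that are not independent. Window counts at the 90th percentile exceeded those at the 10th by a ratio of 2.29 ± 0.0349 (SD, n = 3). The densest window, on chromosome 3 at 13000001 to 14000000, had 458, 425 and 513 peaks in replicates 1, 2 and 3. It was followed by chromosome 5 at 10000001 to 11000000, with 441, 418 and 467, and by chromosome 10 at 8000001 to 9000000, with 442, 385 and 452. Sparsest were chromosome 11 at 27000001 to 28000000 (73, 54 and 57 peaks), chromosome 4 at 15000001 to 16000000 (90, 76 and 79) and chromosome 1 at 3000001 to 4000000 (93, 80 and 92).

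Sequences not placed on a numbered chromosome were more densely covered with peaks. The 95 contigs with a peak carried 2.71%, 2.68% and 2.67% of the peaks of replicates 1, 2 and 3, at 387 ± 28.6 peaks per Mb of their summed span, against 192 ± 14.8 on the numbered chromosomes (SD, n = 3). Contigs without a peak are missing from that span, so the density is that of contigs with peaks. Median enrichment was 3.62 ± 0.0719 on contigs and 3.39 ± 0.0475 on numbered chromosomes. By list it was 3.54, 3.65 and 3.67 on contigs in replicates 1, 2 and 3, against 3.40, 3.34 and 3.43. The most frequent ratios of these lists lie 0.137, 0.310 and 0.242 apart, so each difference is only about 1 such step. Of the 100 strongest regions 24 lay on contigs, which held 3.08% of the regions present in all 3 lists.

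The lists agreed well on where peaks cluster and less well on single peaks. Covered bases of replicates 1 and 3 overlapped with a Jaccard index, the shared bases over the bases in either list, of 0.549, while replicate 2 reached 0.382 with replicate 1 and 0.362 with replicate 3. Replicate 3 overlapped 76.2% of the peaks of replicate 1, and 81.0% of its own were overlapped in return. Between replicates 1 and 2 the shares were 65.2% of the peaks of replicate 1 and 78.2% of those of replicate 2, and between replicates 2 and 3 they were 73.1% of replicate 2 and 63.2% of replicate 3. Most peaks of replicate 2 thus met a peak of each other list by at least 1 base. Peaks met in neither other list made up 14.5%, 14.7% and 12.9% of replicates 1, 2 and 3. With a reciprocal overlap of 50%, 40.2% of the peaks of replicate 2 matched replicate 1 and 41.2% matched replicate 3. Where a peak of replicate 1 met a single peak of replicate 3 and no other, the highest points were a median of 39 bases apart, and 58.1% lay within 50 bases. For replicate 2 the median was 53 bases from either of the other lists.

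Agreement grew with the length and the strength of a peak. A peak of at most 150 bases was overlapped in both other lists in 24.2%, 45.3% and 31.4% of cases in replicates 1, 2 and 3, and one of at least 1000 bases in 97.2%, 99.7% and 97.7%. A long peak also has more bases with which to meet another, so this share was not corrected for length. By enrichment the share was 43.7% ± 6.66 below 2.5, 43.9% ± 8.30 from 2.5 up to 3 and 87.8% ± 10.1 at 7 or more (SD, n = 3). The share was thus level at the low end. Between the class from 5 up to 7 and that of 7 or more it changed little in replicate 1 (81.1% and 81.8%) and replicate 3 (80.7% and 82.1%). In replicate 2 these shares were 95.2% and 99.5%. Among peaks whose q was not below 0.05 it was still 42.9% ± 9.29, against 68.3% ± 5.996 of those with a q below 0.05. Strong peaks were missing almost only from replicate 2. Of the 3762 peaks of replicate 1 with a −log10 q of at least 5, 99.9% had a peak in replicate 3 and 81.7% in replicate 2. Of the 3870 such peaks of replicate 3, 99.7% were met in replicate 1 and 82.1% in replicate 2. The 1908 of replicate 2 were met at 99.5% in replicate 1 and 99.0% in replicate 3.

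**Figure D5:**
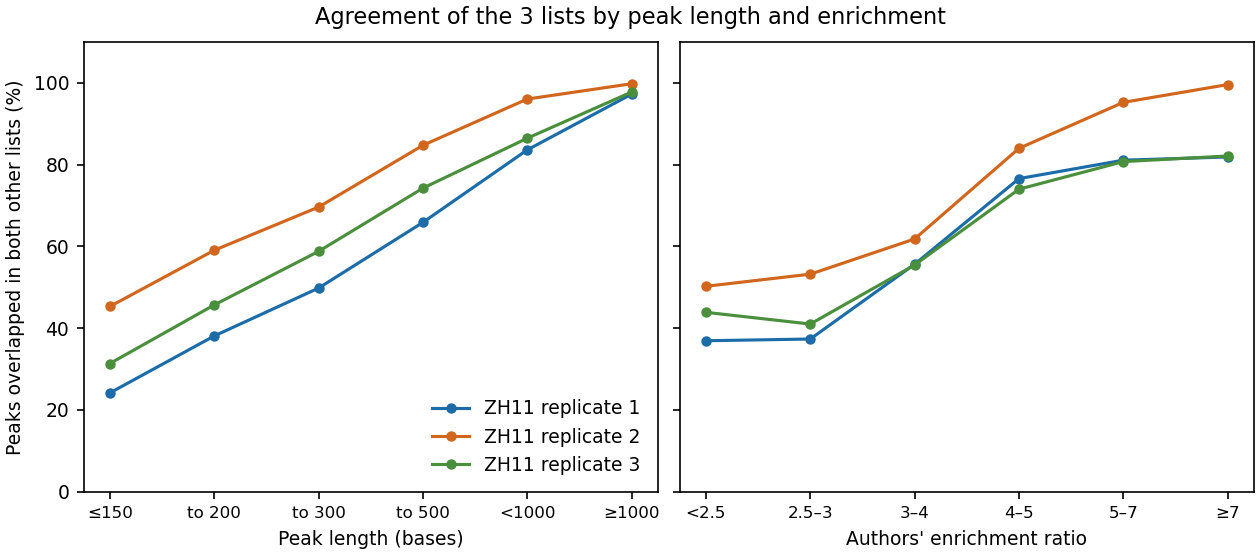
Share of each ZH11 list's peaks that overlap a peak in both other lists by at least 1 base (vertical, %), by peak length (left, bases) and by the authors' enrichment ratio (right), 1 line per list. The share climbs with length in all lists, to 97.2%, 99.7% and 97.7% for peaks of at least 1000 bases, and at an enrichment of 7 or more replicates 1 and 3 stand at 81.8% and 82.1% while replicate 2 reaches 99.5%.

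Merging the 3 lists gave 95554 regions, of which 40030 (41.9%) were in all lists, 24635 (25.8%) in 2 and 30889 (32.3%) in 1. Regions in 1, 2 and 3 lists had median lengths of 148, 261 and 510 bases, and medians of mean enrichment of 2.94, 3.23 and 3.78. A region held by more lists is longer partly because more peaks are joined in it. Replicates 1 and 3 shared 14137 regions that replicate 2 lacked, against 6212 shared by replicates 1 and 2 alone and 4286 by replicates 2 and 3 alone. Of the regions in all lists, 6.04% held more than 1 peak of replicate 1, 14.9% more than 1 of replicate 2 and 19.5% more than 1 of replicate 3. In 21.6% of them a single peak of replicate 1 stood where replicate 2 or 3 had several. By chromosome, the share of regions in all lists ran from 38.6% on chromosome 11 and 39.2% on chromosome 6 to 43.8% on chromosome 5, and it was 51.0% on contigs.

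Over the 40030 regions in all lists, log2 enrichment correlated at 0.603 between replicates 1 and 3, 0.382 between replicates 1 and 2 and 0.390 between replicates 2 and 3 (Pearson, across regions, which are not replicates). Enrichments of replicates 1 and 3 were within 0.5 on the log2 scale in 84.1% of regions. Among the 546 regions with a −log10 q of at least 5 in every list, the most unequal was Contig00091 at 40565 to 46069, with 4.99, 6.75 and 13.4 in replicates 1, 2 and 3. On chromosome 10, 5255695 to 5256517 had 3.52, 7.90 and 5.73, so there replicate 1 was lowest and replicate 2 highest. Of the 5 most unequal regions, 4 lay on contigs, but the share of all 546 that lay on contigs was not computed.

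Regions held by 1 list were weak compared with those shared. The strongest held by replicate 1 alone was on chromosome 10 at 14557658 to 14558157, with an enrichment of 6.28. For replicate 2 it was chromosome 11 at 13276866 to 13276996, with 6.74, and for replicate 3 chromosome 2 at 19908978 to 19909214, with 6.29. Each lay under the leading regions in all lists, of which the first 100, ranked by mean enrichment, had at least 8.47. Each also lay above 3.78, the median of mean enrichment over regions in all lists.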

How the data were processed

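RNA m5C IP-seq was done by the authors on ZH11 seedlings, and 1 peak list per replicate was deposited. Per the labels' descriptions each list belongs to 1 IP and 1 input sample. The deposited lists give per peak an integer score, an enrichment ratio, −log10 values of p and of q, and the offset of the highest point. The score was not used. The submitters' processing notes name BWA, HISAT2, featureCounts and DESeq with no roles, and the sources used here name neither the peak caller nor the genome build. The last peak ends lay 0.208 to 4.53 Mb short of the last genes of the RefSeq table at hand (assembly ASM3414082v1), so its coordinates were not used. Depth is unknown, and no interval that needs it is given. The lists include peaks with p just under 0.05 (smallest −log10 p 1.30 to 1.31), and were used whole.

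Lengths, gaps, densities and overlaps (at least 1 base) were computed in Python 3.11.15 with pandas 2.3.3 and NumPy 2.4.6, and checked on simulated intervals. Chromosome span was the largest peak end over the 3 lists. All results are descriptions with mean ± SD over 3 lists, and no significance test was run, since no groups were compared. Coordinates are 1-based. Named regions followed a rule: the 10 highest in all lists and the highest per chromosome, the 5 longest, the 3 highest per single list (the first of each is named), the 5 most unequal, the 3 densest and sparsest windows, and the 3 longest gaps (longest per chromosome). Chains were described by the longest of each list, chosen after their values were seen. The part of the series, its measures and thresholds were chosen with earlier results of these data known. The grain counts were not used, and the DRW1 overexpression peak lists were used only for the total number of peaks.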

Additional observations from a re-analysis of the deposited data

How the results depend on the processing

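With only peaks of q below 0.05, means per list moved to 48463 peaks, a median length of 279 bases, a median enrichment of 3.84 and a median gap of 2203 bases. The share of peaks overlapped per pair of lists, 72.8% in the full lists, moved to 64.3%, regions in all 3 lists to 21372 and the inner over outer density ratio to 1.21. At a −log10 q of at least 5 there were 3180 peaks of 531 bases, an enrichment of 6.36 and gaps of 64672 bases. Peaks of 1000 bases or more made up 15.8%. The mean Jaccard index was 0.169 (0.431 in the full lists), with 38.0% of peaks overlapped and 546 regions in all lists. The inner over outer ratio was 0.995, with the lists on both sides of 1, from 0.969 to 1.04. These thresholds keep fewer and stronger peaks by construction. Counting covered bases moved the ratio of densest to sparsest chromosome to 1.40 and the inner over outer ratio to 1.18, a split at 25% and 75% of the span moved the latter to 1.30, and windows of 500 kb moved the ratio of the 90th to the 10th percentile to 2.73. A reciprocal overlap of 50% lowered the share of peaks overlapped to 43.3%. Leaving out 1 list gave Jaccard indices of 0.362 to 0.549 and enrichment correlations of 0.400 to 0.612, each highest without replicate 2. Of 78 recomputed values 55 stayed within 1 SD between lists or, for counts, within 1.5 times, but part of that count was fixed in advance. Leaving out 1 of 3 lists cannot move a mean over the lists by a whole SD, so the densities with a list left out show nothing about stability. Using every row as deposited changed nothing, since no interval was repeated. Joining intervals within 100 bases changed nothing either, since no gap was shorter than 104 bases. The settings of the inner over outer ratio were chosen after seeing the data. No paired analysis was possible because no groups were compared. Depth is unknown and sets which weak peaks a list can hold.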

Other observations

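The decline of gaps with length was not smooth, and the lists differed in where it paused. In replicate 1 there were 2349 gaps from 700 up to 800 bases and 2752 from 800 up to 900. In replicate 3 the counts were 2245 and 2435 for those lengths. In replicate 2 they were 1826 and 1656, and the count was higher again, at 1823, from 900 up to 1000 bases. Gaps under 200 bases numbered 6138, 4954 and 11260 in replicates 1, 2 and 3, where the shortest gaps listed were 144, 143 and 104 bases. The lowest part of that range was thus empty in each list, and more of it in replicates 1 and 2 than in replicate 3. From 200 up to 300 bases the counts were 6783, 5587 and 5668.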
